A study of Mus musculus with 6 samples.

Results

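Tenascin C, the other tenascins, the thrombospondins, periostin and fibronectin are secreted glycoproteins of the extracellular matrix. They were followed here as 10 genes, Tnc, Tnn, Tnr, Tnxb, Thbs1, Thbs2, Thbs3, Thbs4, Postn and Fn1, among the 55401 genes of a count table from mouse inner ear. The genes were taken by name, and the set was selected on results of the same comparison of genotypes. Their differences between genotypes are therefore a description, and nothing is read from how many of them passed the test. All 10 genes were among the 19687 genes with enough counts to be tested.

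Bulk RNA sequencing was done on 3 wild-type (WT) libraries and 3 libraries with the genotype Pou3f4y/- (Pou3f4 KO). Pou3f4 encodes a transcription factor with a POU domain, is carried on the X chromosome, and is active in mesenchyme that surrounds the ear as it forms. The comparison was made to look into pigmentation of the mutant inner ear. The labels describe inner ear tissue with all of its cells, and a further label names interstitial cells. The sources used here state no age, strain, sex or kind of Pou3f4 mutation, nor whether the libraries came from separate animals, so the p-values measure only the spread between these samples, which may be technical.

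Most of these proteins are matricellular, which means that they sit in the matrix and modulate how cells attach to it and signal through it, while fibronectin forms fibrils that cells pull on through integrins. Tenascin C and periostin bind fibronectin, and both are typical of matrix that is being laid down or remodelled, as in bone surfaces, periosteum and tendon. Thrombospondins bind calcium, integrins, CD36 and CD47, and thrombospondin 1 can release TGF-beta from its latent complex. The bony capsule of the ear and the fibrous tissue that lines it are places where such matrix is made.

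The gene with a promoter match to the POU factors was Tnc, so its upstream sequence is shown. RefSeq promoter windows of 300 bases (GRCm38.p6, 250 bases before to 50 after each start site) were found for 8 of the 10 genes, all but Fn1 and Thbs1. The 250 bases before the Tnc start site at position 64047015, chr4:64047016-64047265 on the minus strand, are given 5′ to 3′, with the octamer motif of POU factors, ATGCAAAT, in capitals.
Tnc: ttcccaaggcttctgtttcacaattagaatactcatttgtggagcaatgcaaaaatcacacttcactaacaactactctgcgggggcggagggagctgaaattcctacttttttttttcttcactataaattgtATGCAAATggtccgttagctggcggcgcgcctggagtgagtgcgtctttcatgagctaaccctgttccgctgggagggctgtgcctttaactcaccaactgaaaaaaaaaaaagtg
The first base of the octamer lies at -116 from that start site. A TATAAA match begins at -126, next to it and not overlapping it, and a GGGCGG match begins at -167. Both strands were searched, and 570 of 32851 mouse promoter windows of this length (1.735%) held the octamer. Among the windows of these genes it was in both windows of Tnc, which share that stretch, and in none of the other 8. A TGANTCA match, the motif of AP-1, was found in the Tnxb window at -55, against 7.808% of all windows, and TATAAA was found at -26 in a Postn window and on the minus strand at -126 in the Thbs2 window, against 13.62% of all windows. GGGCGG was also found in the Thbs3 and Thbs4 windows, against 35.66% of all windows. These are matches of letters, and no binding was measured.

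Total counts ranged from 18409409 to 23323953 per library, and a count of 0 allowed up to 3 counts, or 0.131 to 0.168 CPM (counts per 1000000, on library sizes scaled by TMM), for counting error only. Pou3f4 was at 58.3, 112 and 114 CPM in WT and at 1.22 to 1.96 CPM in KO. Xist reads, which come from cells with a pair of X chromosomes, were present in 2 libraries and absent in 1 library of each genotype, although y/- in the KO label denotes a hemizygous male. Otic fibrocyte markers (11 genes with Coch, Otor and Otos) summed to 1722 to 3358 CPM in WT and 1394 to 1449 CPM in KO. Of these, 2, Otor and Car3, were lower in KO at an adjusted p under 0.05 by edgeR, against 0.396% of all genes tested in either direction. Emilin2 was lower in every KO library and did not pass. Tbx18 was higher in every KO library (77.7 ± 15.5 CPM in WT, 102 ± 4.74 CPM in KO). Coch, Otos, Tbx15, Tbx2, Slc26a4, Gjb2 and Gjb6 overlapped between the groups and did not pass. Markers of bone, cartilage, nerve and marrow were all present. WT replicate 1 stood apart. It held 1021 CPM of 12 epidermal markers such as the keratins Krt5 and Krt14, against 8.72 to 23.9 CPM in the other 5 libraries. It also held 1069 CPM of 10 adipocyte markers, against 104 to 294 CPM, and 4009 CPM of 10 markers of fibrous connective tissue, against 1906 to 2700 CPM. These 3 lists were chosen after the data were seen. WT replicate 1 was at least 2-fold above the next library for 463 genes, or 2.35% of those tested, against 1 to 78 genes for each other library, so the fitted difference of each gene and the counts of each list are given with and without it.

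**Figure D1:**
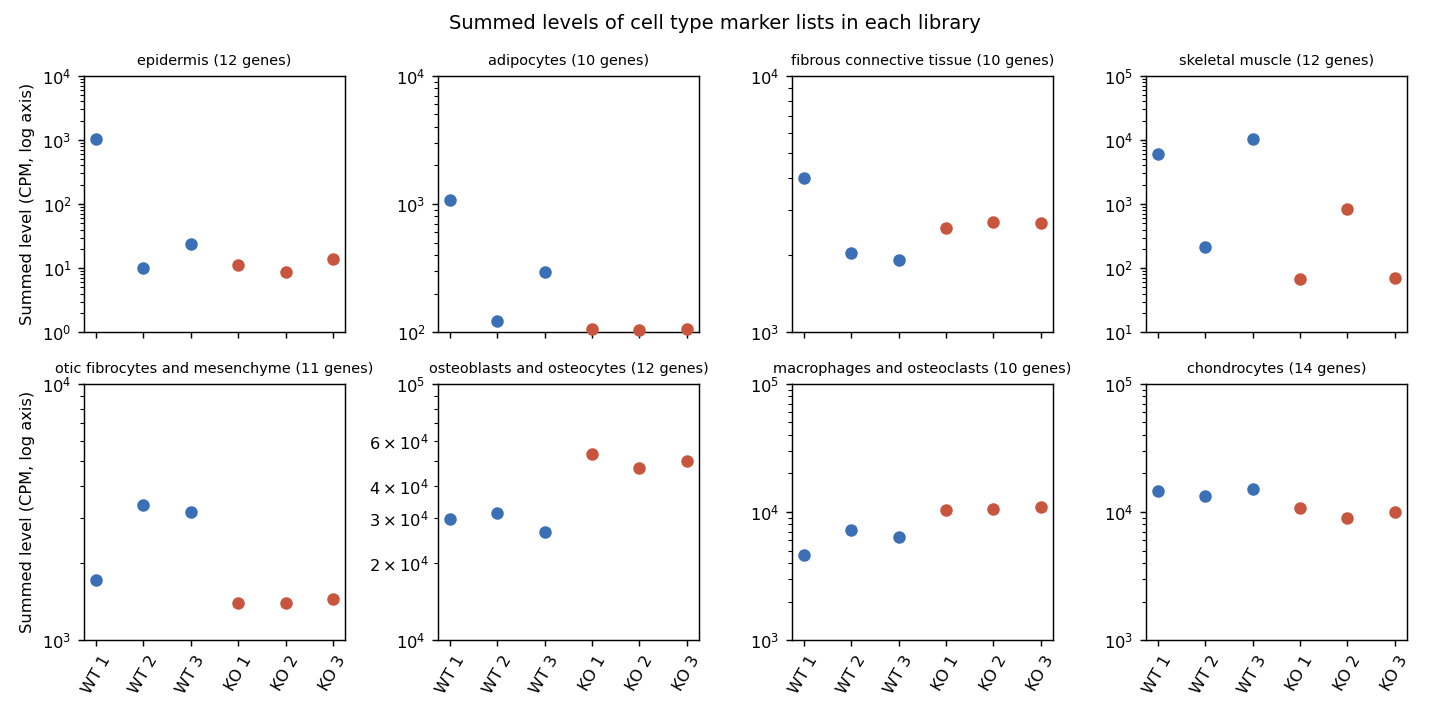
Summed level (CPM, log axis) of 8 cell type marker lists in each library, with WT in blue and Pou3f4 KO in red. Epidermal, adipocyte and fibrous tissue markers are highest in WT replicate 1, skeletal muscle markers in WT replicates 3 and 1, and osteoblast and macrophage/osteoclast markers in the 3 KO libraries.

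Across the genotypes, tenascin C was higher in KO and thrombospondin 1 somewhat lower in every KO library, while 7 of the 10 genes had their highest level of all in WT replicate 1. The fitted log2 fold change (KO over WT) was above 0 for 3 genes and below 0 for 7, with a median of -0.62 over the 10 against -0.01 over all genes tested. Without WT replicate 1 it was above 0 for 6 genes and below 0 for 4, with a median of 0.06, so the sign of the median rested on that library. One gene, Tnc, passed an adjusted p of 0.05, where 78 of 19687 genes (0.396%) passed, 42 higher and 36 lower. The libraries of the groups did not overlap for 2 genes, Tnc and Thbs1, against 27.7% of all genes tested. Since the comparison was used to select the set, these counts carry no weight. In bulk tissue, fewer cells of a type and less RNA per cell cannot be told apart.

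**Figure D2:**
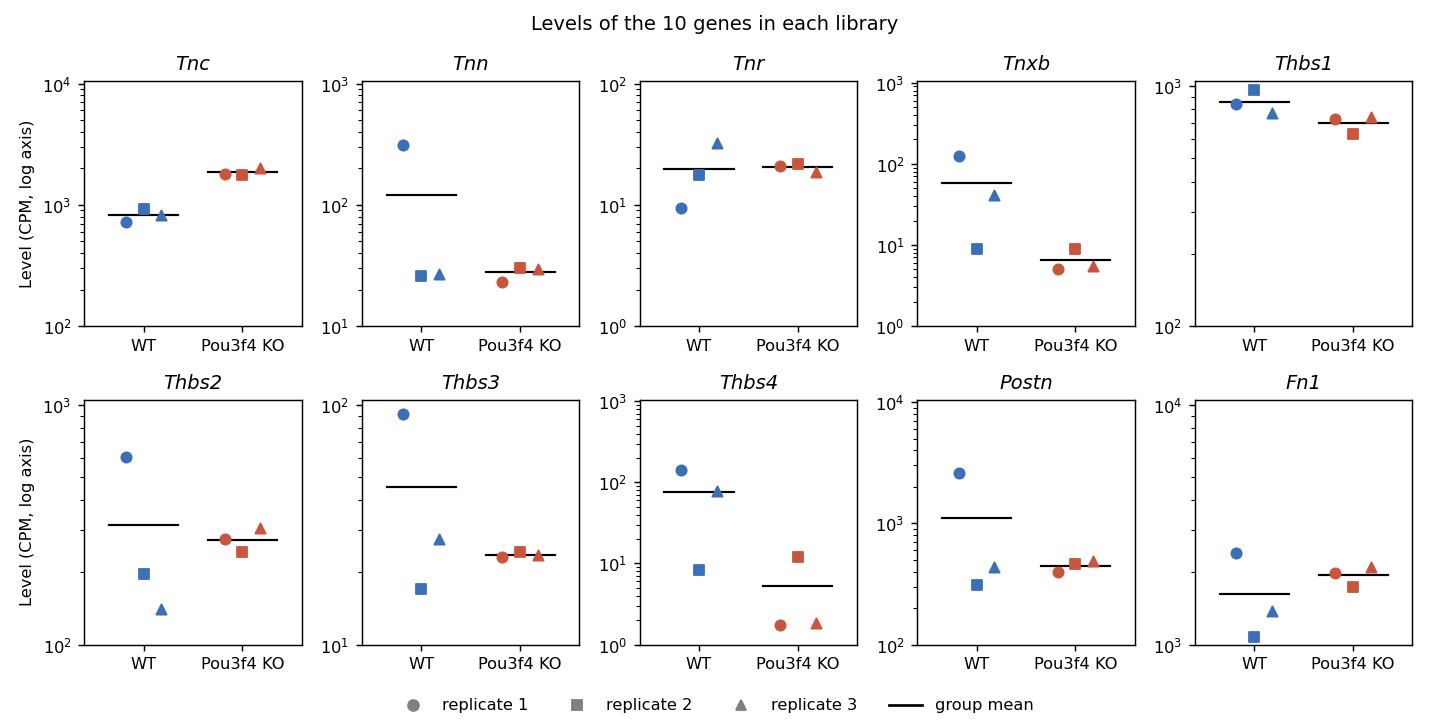
Level (CPM, log axis) of each of the 10 genes in each library, with the marker shape giving the replicate number and the black line the group mean. The KO libraries lie close together for all but Thbs4 and Tnxb, and WT replicate 1 (circle) lies above the other libraries for 7 genes and below them for Tnc and Tnr.

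Tenascin C, a hexameric glycoprotein that interferes with the spreading of cells on fibronectin, stood out among the tenascins. Tnc (ENSMUSG00000028364, mm10 chromosome 4, 63959785 to 64047015, minus strand) was at 717, 928 and 823 CPM in WT and at 1790, 1758 and 1998 CPM in KO. All KO libraries were above all WT libraries, and each group was tight. The means were 823 ± 106 CPM (SD, n = 3) in WT and 1848 ± 130 CPM in KO, a 2.25-fold higher level (log2 fold change 1.17, SE 0.12). The log2 fold change was 1.07 (SE 0.08) without WT replicate 1, and it stayed above 1 in all 17 alternative analyses. Tnc passed the threshold in 10 of them. It did not pass without WT replicate 3 or without any 1 of the KO replicates, where no gene passed by edgeR and 2087 to 3364 genes had an unadjusted p under 0.05, nor with library totals alone, the replicate number or the presence of Xist as a term.

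The summed levels of bone markers and of macrophage and osteoclast markers were higher in KO, like Tnc. Other sums were lower in every KO library. Chondrocyte markers were at 13336 to 15000 CPM in WT and 9016 to 10782 CPM in KO, and Schwann cell markers at 4520 to 8154 and 3120 to 3555 CPM. The 12 osteoblast and osteocyte markers summed to 29643, 31223 and 26536 CPM in WT and to 53083, 47032 and 49816 CPM in KO, and 10 macrophage and osteoclast markers to 4646 to 7218 CPM in WT and 10297 to 10959 CPM in KO. Per 1000 CPM of the osteoblast markers, Tnc was at 24.2, 29.7 and 31.0 in WT and at 33.7, 37.4 and 40.1 in KO, a ratio of the means of 1.31. Per 1000 CPM of the macrophage and osteoclast markers it was at 129 to 154 in WT and 168 to 182 in KO, a ratio of 1.27. The groups did not overlap on either scale. None of the macrophage and osteoclast markers passed, and Ctsk, Acp5 and Mmp9 made up most of their sum. The log2 fold change was above 0 for 9 of them and below 0 for 1. That 1 was C1qa, lower in every KO library (35.1 ± 0.389 CPM in WT, 32.6 ± 0.357 CPM in KO), and C1qb overlapped between the groups. Col1a1 and Spp1 held 94.2% of the rise of the osteoblast sum. None of the other 10 markers passed. The groups did not overlap for 5 of them, all higher in KO, against 27.7% of all genes tested in either direction. They overlapped for 5, among them Ibsp, Mepe and Sost. The 10 markers summed to 7361, 10680 and 9378 CPM in WT and to 10707, 10167 and 10159 CPM in KO, and the groups overlapped. Per 1000 CPM of them, Tnc was at 86.9 to 97.3 in WT and 167 to 197 in KO, a ratio of 1.97. This sum was chosen after the data were seen. Against the collagen type I genes Col1a1 and Col1a2, the main fibre of bone, the groups overlapped, with 18.6, 27.8 and 29.8 in WT and 24.9, 27.7 and 29.7 in KO per 1000 CPM (ratio 1.08). The part of these cells in the result was not tested.

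The antisense gene 8030451A03Rik overlaps 2.26% of the exon length of Tnc and showed the same pattern. It was at 64.3, 86.3 and 75.1 CPM in WT and at 177, 173 and 203 CPM in KO (log2 fold change 1.29, SE 0.13, adjusted p = 0.0387 by edgeR). The library kit marks strand, but whether reads were counted by strand is not stated in the labels, so reads of this pair may be shared.

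Tenascin W (Tnn, ENSMUSG00000026725, chromosome 1, 160085029 to 160153580, minus strand), a tenascin of bone and other stiff matrix, was set apart by 1 library. Its levels were 312, 26.0 and 26.7 CPM in WT and 23.1, 30.2 and 29.7 CPM in KO. WT replicate 1 was 10.3-fold above the next library, and the other 5 libraries overlapped. The log2 fold change was -2.13 (SE 0.98), did not pass, and was 0.06 (SE 0.13) without that library. The coefficient of variation was 136% in WT and 14.3% in KO.

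Tenascin X (Tnxb, ENSMUSG00000033327, chromosome 17, 34660457 to 34719815, plus strand) is a tenascin of loose connective tissue, skin and muscle sheaths. It was at 125, 8.86 and 40.9 CPM in WT and at 5.01, 8.93 and 5.46 CPM in KO. WT replicates 1 and 3 were the highest and WT replicate 2 lay within the range of KO. The means were 58.1 ± 59.7 CPM in WT and 6.47 ± 2.15 CPM in KO, with a log2 fold change of -3.16 (SE 0.88). It did not pass with all libraries or without WT replicate 1 (-1.96, SE 0.60), and it passed without WT replicate 2 (-3.67, SE 0.51), where 3.78% of genes passed, and with DESeq2, where 7.84% passed. The high and low WT libraries of Tnxb were the same as for adipocyte markers, at 1069, 122 and 294 CPM in WT and 104 to 107 CPM in KO. Markers of smooth muscle and pericytes had the same WT order, at 1430, 627 and 1000 CPM, with 593 to 615 CPM in KO. So did tendon markers without Thbs4, at 734, 369 and 499 CPM in WT. In the fibrous tissue list, Dpt, Mfap5, Pi16 and Clec3b had this order, and the more abundant Dcn and Lum did not. The part of these cells in the result was not tested.

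Tenascin R (Tnr, ENSMUSG00000015829, chromosome 1, 159523769 to 159931729, plus strand), which oligodendrocytes and some neurons make for the perineuronal matrix, was low and did not follow the genotype. It was at 9.44, 17.5 and 32.6 CPM in WT and at 20.9, 21.7 and 18.7 CPM in KO. The WT libraries spanned all of the KO libraries (19.8 ± 11.8 against 20.4 ± 1.58 CPM, log2 fold change 0.04, SE 0.40). The sign of this value changed between analyses, from -0.31 without WT replicate 1 to 0.60 without WT replicate 3. The 10 markers of oligodendrocytes and astrocytes had the same order in WT, at 396, 846 and 1049 CPM, and were at 482 to 614 CPM in KO.

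**Figure D3:**
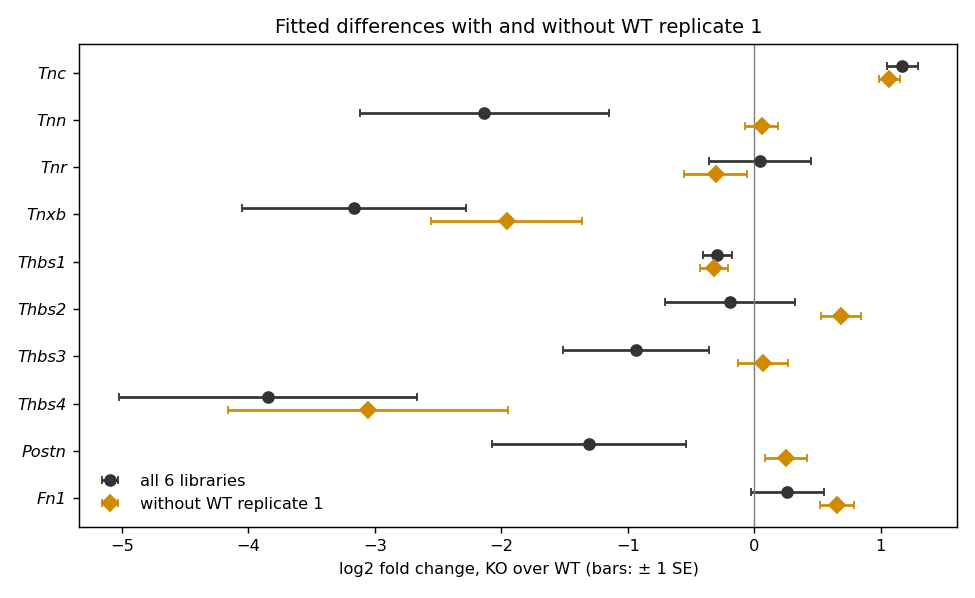
Fitted log2 fold change (KO over WT) of each gene with bars of 1 SE, from all 6 libraries (black) and without WT replicate 1 (orange). Tnc and Thbs1 hardly move, Tnn, Thbs3 and Postn move from below 0 to 0.06, 0.07 and 0.25, and Thbs2 and Fn1 reach 0.69 and 0.65.

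The thrombospondins fall into a trimeric pair, Thbs1 and Thbs2, which have the domains that bind CD36, and a pentameric pair, Thbs3 and Thbs4, of cartilage, bone, tendon and muscle. Thbs1 (ENSMUSG00000040152, chromosome 2, 118111876 to 118127133, plus strand), the activator of latent TGF-beta, was at 841, 965 and 773 CPM in WT and at 726, 634 and 745 CPM in KO. All KO libraries were below all WT libraries, but the gap between WT replicate 3 and KO replicate 3 was small. The means were 860 ± 97.5 and 702 ± 59.5 CPM, a 1.23-fold lower level (log2 fold change -0.29, SE 0.12), which did not pass. The value was -0.32 (SE 0.11) without WT replicate 1 and lay between -0.36 and -0.20 in the 17 alternatives, passing in none. The antisense model Gm29233 overlaps 3.42% of its exon length and had a similar pattern, at 76.0, 83.5 and 81.2 CPM in WT and at 68.3, 61.1 and 67.8 CPM in KO (log2 fold change -0.29, SE 0.08, adjusted p = 0.148 by edgeR), so reads of this pair may be shared.

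Thbs2 (ENSMUSG00000023885, chromosome 17, 14665500 to 14694235, minus strand), which limits matrix metalloproteinase activity and collagen fibril growth, was at 603, 197 and 141 CPM in WT and at 274, 242 and 305 CPM in KO. WT replicate 1 was 1.97-fold above the next library, and both other WT libraries were below all KO libraries. The log2 fold change was -0.19 (SE 0.51), and 0.69 (SE 0.16) without WT replicate 1, just short of the threshold.

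Thbs3 (ENSMUSG00000028047, chromosome 3, 89215180 to 89226837, plus strand), a thrombospondin of developing cartilage and bone, was at 91.8, 17.1 and 27.6 CPM in WT and at 23.1, 24.4 and 23.6 CPM in KO. WT replicate 1 was 3.32-fold above the next library, while the KO libraries had a coefficient of variation of 2.82%. The log2 fold change was -0.94 (SE 0.58), did not pass, and was 0.07 (SE 0.20) without WT replicate 1. The antisense gene Mtx1 overlaps 6.59% of its exon length and held 4755 counts against 4041 for Thbs3, so reads of this pair may be shared too.

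Thbs4 (ENSMUSG00000021702, chromosome 13, 92751590 to 92794818, minus strand) is made by tendon and muscle and helps muscle attach to its matrix. It had the widest ratio of highest to lowest library in each group, 17.1 in WT and 6.96 in KO. Its levels were 141, 8.24 and 78.6 CPM in WT and 1.74, 12.1 and 1.84 CPM in KO. WT replicates 1 and 3 were high, while WT replicate 2 lay below KO replicate 2, so the groups overlapped. The means were 76.0 ± 66.5 and 5.23 ± 5.96 CPM (log2 fold change -3.84, SE 1.18). This did not pass with all libraries or without WT replicate 1 (-3.05, SE 1.10), and of the 17 alternatives it passed with DESeq2 alone.

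Skeletal muscle markers followed the same libraries as Thbs4. The 12 markers summed to 5979, 217 and 10405 CPM in WT and to 68.4, 826 and 71.1 CPM in KO. Per 1000 CPM of these markers, Thbs4 was at 23.6, 38.0 and 7.56 in WT and at 25.5, 14.7 and 25.9 in KO, with means of 23.0 ± 15.2 and 22.0 ± 6.36, and the groups overlapped. Tendon markers without Thbs4 (7 genes) summed to 734, 369 and 499 CPM in WT and 393 to 492 CPM in KO. Of these, Tnmd, Scx, Fmod, Kera and Chodl had the WT order of Thbs4, and Mkx and Egr1 did not. Kera was at 54.1, 3.54 and 45.4 CPM in WT and at 1.83, 6.62 and 3.19 CPM in KO. The part of muscle or of tendon in the level of Thbs4 was not tested.

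Periostin, a matricellular protein of periosteum, ligament and fibrous tissue that promotes collagen crosslinking, was dominated by WT replicate 1. Postn (ENSMUSG00000027750, chromosome 3, 54361109 to 54391037, plus strand) was at 2576, 308 and 438 CPM in WT and at 398, 461 and 486 CPM in KO. WT replicate 1 was 5.31-fold above the next library, and the other 5 libraries overlapped. The log2 fold change was -1.31 (SE 0.77), did not pass, and was 0.25 (SE 0.16) without that library. The coefficients of variation were 115% in WT and 10.1% in KO. The markers of epidermis, adipocytes and fibrous tissue given above were also highest in that library, and their part in the levels of Postn, Tnn, Thbs2 and Thbs3 was not tested.

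Fibronectin, the fibril on which many matrix proteins assemble, was higher in KO than in the WT libraries other than WT replicate 1. Fn1 (ENSMUSG00000026193, chromosome 1, 71585520 to 71653200, minus strand) was at 2417, 1070 and 1383 CPM in WT and at 1982, 1735 and 2114 CPM in KO. WT replicate 1 was above all KO libraries and the other WT libraries were below them. With all libraries, the means were 1624 ± 705 and 1944 ± 192 CPM (log2 fold change 0.26, SE 0.29), which did not pass. Without WT replicate 1 the log2 fold change was 0.65 (SE 0.14), past the threshold together with Tnc, where 1814 of 20019 genes (9.06%) passed. It was 0.035 (SE 0.24) without WT replicate 2 and 0.16 (SE 0.34) without WT replicate 3, and did not pass.

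Read against each other, the 10 genes made up a different mixture in each genotype. Levels between genes were compared as CPM per kilobase of merged exons. In KO the order was Tnc at 238 ± 16.8, Fn1 at 166 ± 16.4, Thbs1 at 116 ± 9.79, Postn at 51.5 ± 5.20 and Thbs2 at 39.1 ± 4.52 CPM per kilobase, with each of these steps wider than the SDs of its neighbours. Thbs3 at 4.91 ± 0.139 and Tnn at 4.76 ± 0.682 came next and did not differ beyond their spread. Neither did Thbs4 at 1.59 ± 1.81 and Tnr at 1.59 ± 0.123, while Tnxb, last at 0.530 ± 0.176 CPM per kilobase, was below Tnr by more than their SDs.

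In WT the order was Thbs1 (142 ± 16.1), Fn1 (139 ± 60.4), Postn (127 ± 146) and Tnc (106 ± 13.6 CPM per kilobase), and no neighbours among these differed beyond their spread. After a step from Tnc wider than the SDs came Thbs2 (44.8 ± 36.0), Thbs4 (23.1 ± 20.2), Tnn (20.9 ± 28.3), Thbs3 (9.43 ± 8.38), Tnxb (4.76 ± 4.89) and Tnr (1.54 ± 0.914 CPM per kilobase), where no neighbours differed beyond their spread. The highest gene was Postn in WT replicate 1 (296 CPM per kilobase), Thbs1 in WT replicates 2 and 3 (159 and 127), and Tnc in all KO libraries (230, 226 and 257). With the length of the longest transcript in place of merged exons, Postn had means of 212 in WT and 85.8 CPM per kilobase in KO. The order of the first 5 genes in KO stayed as it was, with a narrower step from Tnc (260) to Fn1 (234). In WT the order became Postn, Fn1 (195), Thbs1 (147) and Tnc (116), and Fn1 also lay above Thbs1 in WT replicate 3. On merged exons, the WT order without WT replicate 1 was Thbs1 (143), Tnc (113), Fn1 (105), Postn (42.9), Thbs2 (24.1), Thbs4 (13.2), Thbs3 (4.63), Tnn (4.53), Tnxb (2.04) and Tnr (1.95 CPM per kilobase), as means of 2 libraries.

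The summed level was 946, 446 and 462 CPM per kilobase in WT and 616, 583 and 672 in KO. Tnc made up 9.74, 26.8 and 22.9% of it in WT and 37.4, 38.8 and 38.2% in KO. Its share was above all WT libraries in every KO library, with means of 19.8 ± 8.93% and 38.1 ± 0.703%. Thbs1 made up 14.6, 35.6 and 27.5% in WT and 19.4, 17.9 and 18.2% in KO, where WT replicate 1 lay below KO. The ratio of Tnc to Thbs1 in CPM, which needs no scaling between libraries, was 0.852 to 1.06 in WT and 2.46 to 2.77 in KO.

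**Figure D4:**
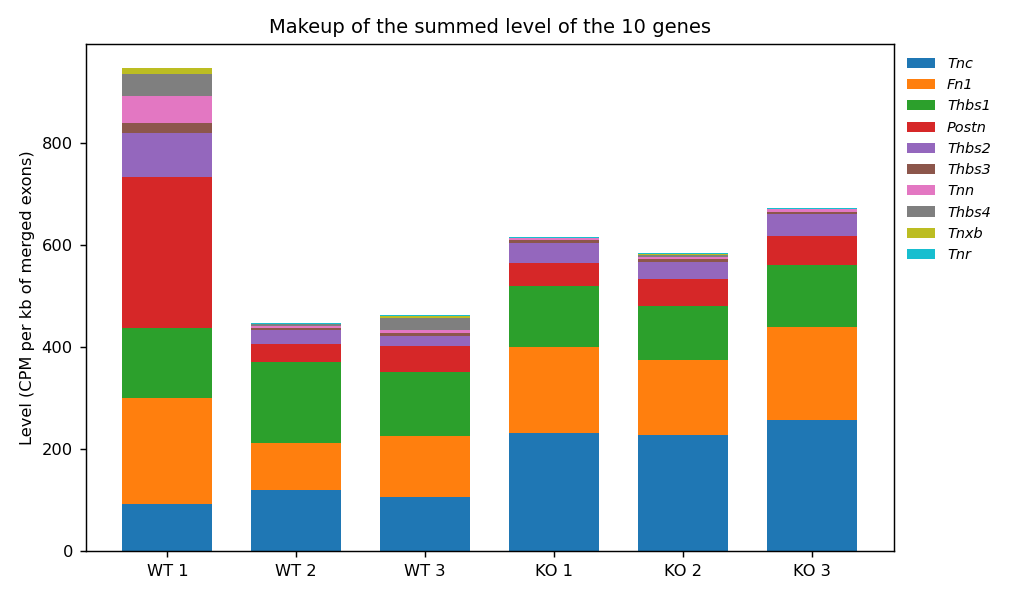
Stacked levels of the 10 genes (CPM per kilobase of merged exons) in each library. Tnc, the lowest segment, is at 92.2 to 119 in WT and 226 to 257 in KO, and Postn is at 296 in WT replicate 1 against 35.4 to 55.8 in the other libraries.

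The libraries grouped the genes into a few patterns, described by the root mean square distance between centred log2 CPM values over the 6 libraries, which share library and depth. The closest pairs within the set were Thbs3 and Postn (0.265), Tnn and Postn (0.373) and Thbs2 and Fn1 (0.400). Tnc was nearest to Fn1 (0.618), and Thbs4 was nearest to Tnxb (0.931).

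Near genes were sought among the genes tested, leaving out names of the Gm or Rik kind, mitochondrial genes and named pseudogenes. The antisense gene 8030451A03Rik, with the same pattern as Tnc, was therefore not among the genes searched. Of the genes searched, the 3 nearest to Tnc were Galnt5 (0.0872), Bmp3 (0.0997) and Cgref1 (0.102). Galnt5 is a glycosyltransferase that starts O-linked sugar chains, and Bmp3 a bone morphogenetic protein made by osteoblasts. Bmp3 was at 59.3, 75.3 and 64.6 CPM in WT and at 132, 137 and 134 CPM in KO. The nearest to Tnn were the desmosomal gene Perp (0.197), Gk (0.201) and the epidermal gene Sbsn (0.219). Perp was at 165 CPM in WT replicate 1 and 12.0 to 15.7 CPM elsewhere. Those of Postn were Lrrc15 (0.129), Cdcp1 (0.146) and Aspn, a small proteoglycan of periodontal ligament and cartilage (0.180).

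Thbs3 lay nearest to Cenpp (0.0852), Anxa8 (0.0888) and Lhx2 (0.107), and Thbs2 to Il1rl2 (0.107), Erich2 (0.141) and the collagen Col16a1 (0.156). Tnxb lay nearest to the glycerol channel Aqp7 (0.233), Clec3b (0.268) and Gpd1 (0.272). Genes near to Thbs4 were the calcium store protein of muscle Casq2 (0.381) and the muscle regulator Myog (0.387). Casq2 was at 89.4, 4.59 and 66.0 CPM in WT and at 1.83, 11.8 and 2.16 CPM in KO, the same high and low libraries as Thbs4. The remaining genes had Mro, Lin28b and Trem3 nearest to Tnr (0.116 to 0.147), Plpp2, Cptp and Csrnp2 to Thbs1 (0.0492 to 0.0625), and Slc38a4, Lmbrd2 and the growth factor Igf2 to Fn1 (0.0851 to 0.0942). Beyond the filter of the test, no minimum level was set for near genes. Lin28b and Erich2 were at no more than 1.47 and 1.40 CPM in any library.

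The receptors, partners and regulators of these proteins were read from 6 lists of 124 genes in all. Of 123 tested, 5 passed (4.07%, against 0.396% of all genes), 4 higher and 1 lower, with a median log2 fold change of -0.07. Without WT replicate 1, 40 of 124 passed (32.3%, against 9.06% of all genes), 23 higher and 17 lower, and the median was 0.08. The lists were drawn up with earlier results of these data known, and Spp1, Col1a1 and Col1a2 had been seen to be higher, so these counts are no independent support.

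Among 25 integrin subunits tested, 1 rose, with a list median of 0.20. Itga2, the alpha subunit of a collagen receptor, was at 46.1, 51.3 and 41.4 CPM in WT and at 79.7, 75.0 and 86.6 CPM in KO, and the groups did not overlap. It rose 1.74-fold (log2 fold change 0.80, SE 0.10, adjusted p = 0.049 by edgeR). Without WT replicate 1, 6 subunits passed as higher, Itga2, Itga10, Itga11, Itgav, Itgb1 and Itgb3, and 6 as lower, Itga3, Itga6, Itga7, Itga8, Itgb4 and Itgb8. In that fit 9.06% of all genes passed, and the list median was 0.22. Itga10 and Itga11 bind collagen like Itga2, as does Itga1, which passed in neither fit, and Itga3, Itga6 and Itga7 bind laminin.

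Of 24 other matricellular proteins, 1 rose and 1 fell, with a median of -0.36. Spock1, a proteoglycan of the SPARC family, was at 64.0, 76.8 and 79.7 CPM in WT and 42.4 to 43.0 CPM in KO, a 1.72-fold fall (log2 fold change -0.78, SE 0.10, adjusted p = 0.049 by edgeR). Spp1, the bone phosphoprotein osteopontin, rose from 4397 ± 643 to 8271 ± 399 CPM (log2 fold change 0.91, SE 0.12). Of 22 genes of matrix assembly and crosslinking (median 0.12), 2 rose, Col1a1 (1.01, SE 0.13) and Col1a2 (1.04, SE 0.14). These 3 genes are made by osteoblasts, and Col1a1 and Spp1 are themselves on the list of osteoblast markers. When WT replicate 1 was left out, 9.06% of all genes passed. Of the matricellular proteins, 2 then passed as higher and 5 as lower (median -0.08). Of the genes of matrix assembly and crosslinking, 8 passed as higher and 1 as lower (median 0.37). Itga2 and Spock1 each passed in 10 of 17 alternatives, Col1a1 in 8, and Spp1 and Col1a2 in 7. None of the 5 passed without WT replicate 3 or any 1 of the KO replicates.

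No gene passed among 21 other receptors and partners (6 at an unadjusted p under 0.05, none past the threshold by edgeR), where the most abundant were the chaperone Calr, at 740 ± 203 and 915 ± 26.3 CPM, and the endocytic receptor Lrp1, at 442 ± 106 and 451 ± 57.3 CPM. None of 12 TGF-beta ligands, receptors and latent proteins passed by edgeR (4 at an unadjusted p under 0.05), with Tgfbr2 at 285 ± 47.3 and 302 ± 19.0 CPM and Ltbp3 at 233 ± 45.0 and 246 ± 16.0 CPM. None of 19 genes that respond to TGF-beta or to tension passed either (8 at an unadjusted p under 0.05). The most abundant were Cnn2, a calponin, at 182 ± 7.63 and 273 ± 11.5 CPM (log2 fold change 0.58, adjusted p = 0.0522 by edgeR, past the threshold in 8 of 17 alternatives), and Prrx1, at 205 ± 95.2 and 176 ± 6.56 CPM. Without WT replicate 1, where 9.06% of all genes passed, the genes past the threshold numbered 5, 1 and 6 in these 3 lists. The medians were then 0.09, 0.20 and 0.09, against -0.07, -0.15 and -0.01 with it. DESeq2, which called 7.84% of all genes, called 36 of the 124 partner genes in all.

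**Figure D5:**
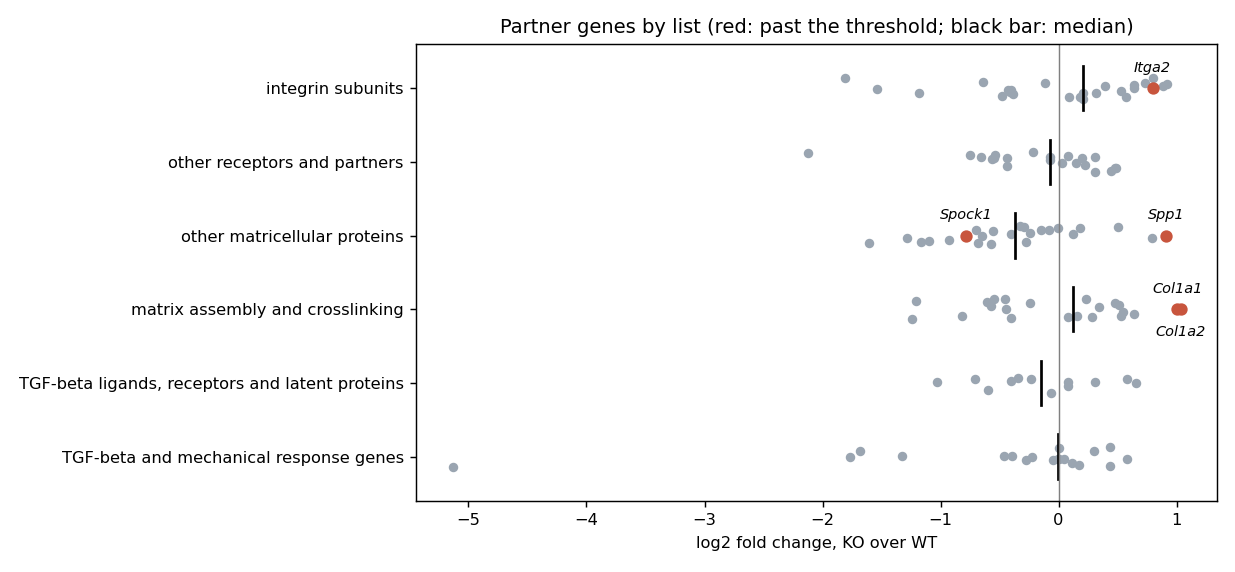
Log2 fold change (KO over WT) of each tested partner gene by list, with genes past the threshold in red and the list median as a black bar. The 4 red points above 0 are Itga2, Spp1, Col1a1 and Col1a2, and the red point below 0 is Spock1.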

How the data were processed

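Poly(A) RNA of 6 inner ear libraries was sequenced, and the authors deposited read counts per gene, whole numbers that were not normalised. Per the submitters' processing notes, Trimmomatic, HISAT2, Cufflinks and HTSeq were used with mm10. The sources used here name no version, annotation release or strand setting. Counts were fitted as deposited in R 4.3.3 with edgeR 4.0.16 (filterByExpr with a minimum count of 10, TMM, quasi-likelihood F test, with the genotype as the only term). Adjustment was by Benjamini-Hochberg over 19687 genes, at a threshold of 0.05. The SE of a log2 fold change was derived from its F value. The fit was tested on simulated counts with the same spread for all genes and no outlying library. That test does not cover a library that stands apart, such as WT replicate 1.

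Exon lengths came from GENCODE M21, in which all of the 10 genes but Tnxb had the coordinates of the table. The alternatives covered 3 scalings, 2 filters, DESeq2 1.42.0, limma-voom (limma 3.58.1), the replicate number or the presence of Xist reads as a term, abundant or muscle, haemoglobin and mitochondrial genes left out, and each library left out. WT levels per kilobase without WT replicate 1, and the osteoblast sum without Col1a1 and Spp1, were added after the data were seen. The genes and lists were chosen with earlier results of these data known. Named genes were the 10 genes, Pou3f4, and up to 4 partner genes past the threshold per list or else the 2 with the highest mean CPM. Also named were the 3 genes nearest to each of the 10 (log2 CPM, prior count 2, members with a mean of at least 10 CPM). Names of the Gm or Rik kind, mitochondrial genes and named pseudogenes were left out of the near genes. The result of 1 gene that this rule takes is not reported here. Other genes named were chosen after their values were seen.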

Additional observations from a re-analysis of the deposited data

How the results depend on the processing

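With all libraries, 78 genes, 1 of the 10 matrix genes and 5 partner genes passed the threshold. The counts were 7, 0 and 0 with library totals alone, 1509, 3 and 36 with DESeq2, and 0, 0 and 0 with Xist presence in the model, where 3185 genes had an unadjusted p under 0.05. With 1 library left out, they ranged from 0 to 1814 genes, 0 to 2 matrix genes and 0 to 40 partner genes. They were 1814, 2 and 40 without WT replicate 1 and 760, 2 and 19 without WT replicate 2, and 0 throughout without WT replicate 3 or any 1 of the KO replicates. Partner genes past the threshold numbered 2 with RLE scaling, 8 with no filter on low counts, and 3 without muscle, haemoglobin and mitochondrial genes or with the 50 most abundant genes out of the library sizes. Same-numbered libraries did not deviate together (correlations of -0.13, -0.29 and -0.19), and differently numbered ones had correlations of -0.08 to 0.24. The deviations of the 3 libraries of a group sum to 0, so these values cannot decide whether the numbers pair the samples. With the replicate number as a block, 1 gene, 0 matrix genes and 0 partner genes passed. The log2 fold change changed sign for Tnr with library totals alone (-0.011), and for Thbs2 with limma-voom (0.094) and with the replicate block (0.10). Leaving out 1 library moved it from -2.61 to 0.056 for Tnn, -0.31 to 0.60 for Tnr, -0.54 to 0.69 for Thbs2, -1.33 to 0.070 for Thbs3 and -1.75 to 0.25 for Postn. Tnc (1.07 to 1.27), Tnxb, Thbs1, Thbs4 and Fn1 kept their sign in all 17 alternatives. The cause of these changes was not tested beyond the choice that defines each alternative. The number of libraries, 3 in each group, limits the precision.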

Other observations

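Receptors of the matrix proteins that lay outside the naming rule were looked at after their values were seen. The vitronectin receptor subunits Itgav and Itgb3, which bind tenascin C, periostin, thrombospondins and fibronectin, did not pass with all libraries by edgeR. Itgav was at 205 ± 36.5 CPM in WT and at a higher mean of 320 ± 5.89 CPM in KO (log2 fold change 0.64, SE 0.14, adjusted p = 0.103). Itgb3, which osteoclasts and platelets also carry, was at 144 ± 33.3 and 273 ± 16.4 CPM (0.92, SE 0.17, adjusted p = 0.0799). All KO libraries were above all WT libraries for both. Itga8, a partner of Itgb1 that binds tenascin C and fibronectin, was at 52.2 ± 1.38 and 37.5 ± 2.41 CPM (log2 fold change -0.48, SE 0.08, adjusted p = 0.0636). The thrombospondin receptor Cd47 was at 186 ± 26.4 and 177 ± 4.97 CPM, and Cd36, which adipocytes and muscle also make, was at 391, 59.7 and 162 CPM in WT and had a mean of 47.0 ± 5.16 CPM in KO (adjusted p = 0.158), with the same high libraries as Tnxb and Thbs4.

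The further thrombospondin gene Comp, of cartilage and tendon, was at 139, 53.6 and 123 CPM in the WT libraries and at 81.0 to 117 CPM in those of KO, and the groups overlapped. Sparc, an abundant collagen-binding protein of bone, had means of 8895 ± 251 CPM (WT) and 12581 ± 198 CPM (KO) (log2 fold change 0.50, SE 0.08, adjusted p = 0.0599). Von Willebrand factor, Vwf, was at 38.8 ± 7.22 and 17.3 ± 2.10 CPM (-1.17, SE 0.17, adjusted p = 0.0556). Neither passed by edgeR with all libraries and the filter used for the report. Sparc passed when genes needed 1 CPM or more in 3 libraries, and Vwf with no filter on low counts. Both passed with DESeq2 and without WT replicate 1, with Sparc higher and Vwf lower in KO.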
